A study of Arabidopsis thaliana with 12 samples.

Results

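The jasmonate ZIM-domain (JAZ) proteins are the repressors of jasmonate signalling, and 10 genes of Arabidopsis that encode them are described here: *JAZ1* (AT1G19180), *JAZ2* (AT1G74950), *JAZ3* (AT3G17860), *JAZ4* (AT1G48500), *JAZ5* (AT1G17380), *JAZ6* (AT1G72450), *JAZ7* (AT2G34600), *JAZ8* (AT1G30135), *JAZ9* (AT1G70700) and *JAZ10* (AT5G13220). They were found by their locus, or by its RefSeq transcript, among the annotated probes of an Agilent array, and are 10 of the 25182 genes tested, of which 20545 had a locus. The 10 genes were carried by 13 probes. The brightest probe of each gene was used, and each of these was well above background on all 12 arrays.

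In cells with little hormone, JAZ proteins bind MYC2 and related transcription factors and hold their targets silent together with the adaptor NINJA and the corepressor TOPLESS. Jasmonoyl-isoleucine, the active form of the hormone, joins JAZ proteins to the receptor COI1, which leads to their degradation and releases the transcription factors. Many *JAZ* genes are themselves targets of MYC2, so that their transcripts are widely read as a sign of jasmonate response, in roots as in leaves.

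Roots were cut from 7-day-old seedlings before or after 4 h in liquid medium with 150 mM NaCl (0 h and 4 h). The 4 groups were *agb1* (the mutant *agb1-3*) at 4 h, wild type Col-0 (WT) at 4 h, *agb1* at 0 h and WT at 0 h, with 3 arrays each. *AGB1* encodes the Gβ subunit of the heterotrimeric G protein, and *agb1-3* is a single T-DNA insertion line, so that the line and the loss of AGB1 cannot be told apart. The labels call the unsalted roots 0 h roots and the methods describe the control as 4 h without NaCl, so that a response to immersion cannot be told apart from one to salt here.

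The *agb1* arrays of replicates 1 and 2 at 0 h were no farther apart than repeated spots on 1 array (ratio of the spreads 1.02, against 1.32 to 6.02 for the other 11 replicate pairs), and were averaged and counted as 1 sample. The fit therefore rests on 11 samples, of which *agb1* at 0 h has n = 2 and each other group n = 3. Among the other 11 pairs, the ratios were lowest in WT at 0 h (1.32, 1.68 and 1.85) and 2.45 or more elsewhere. Whether the WT arrays at 0 h are independent samples was not tested. The 75th percentile of the signal ranged from 1772 to 3582 units between arrays, and 74.1% to 76.1% of spots were well above background. The log2 signal of *AGB1* lay between -0.09 and 0.88 on the *agb1* arrays and between 1.26 and 1.64 on the WT arrays. Whether its probe lies beyond the insertion was not tested. All 9 root cell markers and all 6 leaf markers looked at were well above background on every array, so that the leaf markers were not absent from these roots. Signals are given as log2 processed signal relative to the 75th percentile of the array, a scale that compares one gene between samples and not different genes with each other. In whole roots, fewer cells of a type and less RNA per cell cannot be told apart.

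The members fell into several patterns over the 12 arrays. *JAZ1*, *JAZ2*, *JAZ7*, *JAZ9* and *JAZ10* had WT at 0 h as their lowest group, with no overlap with the next group up, and their other 3 groups overlapped with their neighbours. *JAZ5* had WT at 0 h lowest too, with *agb1* at 4 h set apart from the other 2 groups. *JAZ4* ran the other way, with WT at 0 h highest, *JAZ6* had *agb1* at 0 h highest and apart from the rest, and *JAZ3* and *JAZ8* overlapped between all neighbouring groups.

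**Figure D1:**
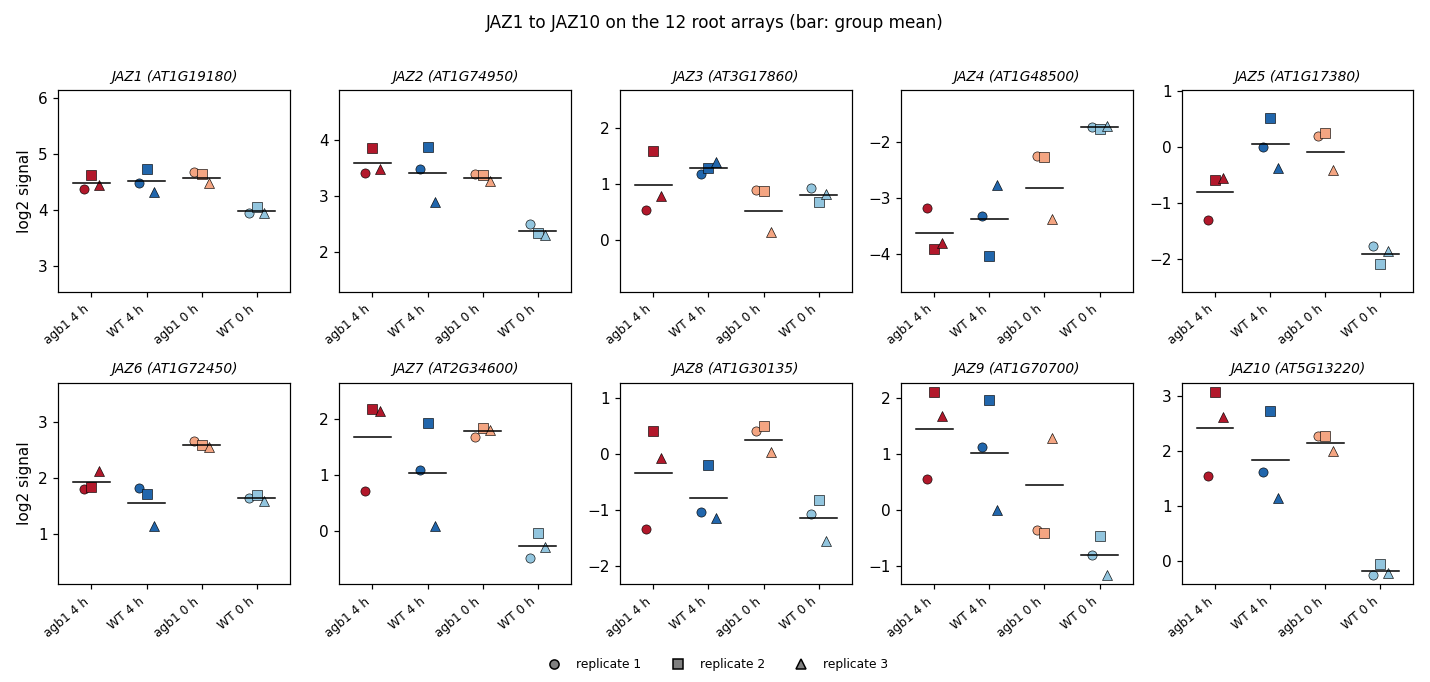
The log2 signal (processed signal over the 75th percentile of its array) of the 10 *JAZ* genes is plotted for each of the 12 arrays, by group on the horizontal axis, with a bar at the group mean over samples. Each panel has its own range of at least 3.6 log2 units. WT at 0 h stands below the other groups for *JAZ1*, *JAZ2*, *JAZ5*, *JAZ7*, *JAZ9* and *JAZ10* and above them for *JAZ4*.

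In roots without salt, most *JAZ* genes had a higher signal in *agb1* roots than in WT roots. The arrays of *agb1* all lay above those of WT for 8 of the 10 genes (*JAZ1*, *JAZ2* and *JAZ5* to *JAZ10*), where 20.1% of all genes did so, and all below for *JAZ4*, where 20.3% of all genes did so. *JAZ5* passed the adjusted threshold, the 1 member to do so, and it was higher in *agb1*. Of all genes, 0.592% passed it in that direction. At an unadjusted p below 0.05 and at least 2-fold, the rule of the study's own legend, *JAZ5*, *JAZ7*, *JAZ8* and *JAZ10* were higher (2.95% of all genes) and *JAZ4* was lower (3.09% of all genes). The median difference was 1.1 log2 units over the 10 genes and 0.00 over all genes.

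*JAZ1* and *JAZ2* are close paralogs, and JAZ1 was among the first of these proteins shown to be bound by COI1. At 0 h *JAZ1* had log2 signals of 4.66, 4.63 and 4.47 in *agb1*, against 3.94, 4.05 and 3.93 in WT. *JAZ2* had 3.40, 3.38 and 3.28 in *agb1*, against 2.51, 2.34 and 2.31 in WT. The groups did not overlap for either gene, and the differences were 0.58 (SE 0.15, limma adjusted p = 0.0917) for *JAZ1* and 0.95 (SE 0.26, limma adjusted p = 0.103) for *JAZ2*. Neither passed the adjusted threshold.

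*JAZ5* and *JAZ6* form a second pair of close relatives. *JAZ5* had log2 signals of 0.19, 0.25 and -0.40 in *agb1* at 0 h, against -1.75, -2.09 and -1.86 in WT. Every *agb1* array was more than 1 log2 unit above every WT array, and the difference was 1.81, which is 3.51-fold (95% interval 1.09 to 2.53, limma adjusted p = 0.0311). *JAZ6* had 2.67, 2.58 and 2.55 in *agb1*, against 1.64, 1.69 and 1.59 in WT, and differed by 0.95 (SE 0.20, limma adjusted p = 0.0521). The *JAZ6* arrays of each genotype lay close together and far from those of the other.

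The call of *JAZ5* at 0 h was not kept under each setting tried. Its limma adjusted p was 0.174 with the normexp background correction, 0.0623 with the slide as a fixed term, 0.0570 with array weights and 0.0951, 0.114 and 0.112 when replicate 1, 2 or 3 of WT at 0 h was left out. The difference itself stayed between 1.43 and 2.12. With the 12 arrays counted as 12 samples, 6 members passed at 0 h, with *JAZ1*, *JAZ2*, *JAZ6*, *JAZ7* and *JAZ10* joining *JAZ5*, and 5 members passed when replicate 3 of WT at 4 h, a group that is not part of this comparison, was left out. The share of all genes called at 0 h moved with these settings too, at 8.99% with 12 samples and 3.22% when that array was left out, against 1.88% as reported.

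*JAZ7* and *JAZ8* are short members that carry their own repression motif and so can recruit TOPLESS without NINJA, and JAZ8 lacks the usual degron and is stable in the presence of the hormone. *JAZ7* had log2 signals of 1.68, 1.85 and 1.81 in *agb1* at 0 h, against -0.48, -0.04 and -0.28 in WT, a difference of 2.05, or 4.15-fold (95% interval 0.82 to 3.28, limma adjusted p = 0.0969). *JAZ8* had 0.42, 0.50 and 0.05 in *agb1*, against -1.07, -0.82 and -1.54 in WT, a difference of 1.40 (95% interval 0.30 to 2.50, limma adjusted p = 0.169). Both genes had separate groups at 0 h without passing the adjusted threshold.

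*JAZ10*, whose splice variants yield proteins that resist degradation and dampen the response, differed most among the members at 0 h. Its log2 signals were 2.28, 2.27 and 2.01 in *agb1*, against -0.26, -0.06 and -0.22 in WT. The difference was 2.32, or 5.00-fold (95% interval 1.2 to 3.45, limma adjusted p = 0.0531), and the interval lay above 0 while the adjusted p missed the threshold. Its second probe gave a difference of 2.84 (SE 0.53).

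*JAZ3*, *JAZ4* and *JAZ9* belong to one branch of the family, and *JAZ3* is the gene of the dominant jasmonate-insensitive mutant *jai3-1*. They did not move together at 0 h. *JAZ9* had log2 signals of -0.36, -0.41 and 1.27 in *agb1*, against -0.81, -0.46 and -1.16 in WT, so that replicate 3 of *agb1* carried most of the difference of 1.26 (SE 0.67, limma adjusted p = 0.335), which was 0.43 without it. *JAZ4* had -2.24, -2.27 and -3.36 in *agb1*, against -1.72, -1.76 and -1.70 in WT, a difference of -1.08 (limma adjusted p = 0.197) that was -0.53 without *agb1* 0 h replicate 3. *JAZ3* had 0.90, 0.88 and 0.16 in *agb1*, against 0.93, 0.68 and 0.83 in WT, and its groups overlapped.

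In WT roots, 4 h of salt raised 4 of the 10 genes and lowered 1. *JAZ1*, *JAZ2*, *JAZ5* and *JAZ10* rose and *JAZ4* fell at an adjusted p below 0.05, where 8.86% of all genes rose and 11.2% fell. At an unadjusted p below 0.05 and at least 2-fold, *JAZ2*, *JAZ5*, *JAZ7*, *JAZ9* and *JAZ10* were higher (7.32% of all genes) and *JAZ4* was lower (5.09%). The arrays at 4 h all lay above those at 0 h for 7 members (17.7% of all genes) and all below for 1 (27.4%). The median response was 0.78 log2 units over the 10 genes and -0.10 over all genes.

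*JAZ5* and *JAZ10* had the largest of the called rises in WT. *JAZ5* had log2 signals of 0.00, 0.53 and -0.37 at 4 h, against -1.75, -2.09 and -1.86 at 0 h, a response of 1.95, or 3.87-fold (95% interval 1.31 to 2.60, limma adjusted p = 0.00247). *JAZ10* had 1.62, 2.73 and 1.14 at 4 h, against -0.26, -0.06 and -0.22 at 0 h, a response of 2.01, or 4.03-fold (95% interval 1.01 to 3.02, limma adjusted p = 0.0149). The 4 h arrays spread far more than the 0 h arrays for *JAZ10* (SD 0.81 against 0.10), with replicate 2 highest and replicate 3 lowest, and the groups stayed apart.

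*JAZ2* had log2 signals of 3.49, 3.88 and 2.90 in WT at 4 h, against 2.51, 2.34 and 2.31 at 0 h, a response of 1.03 (SE 0.23, limma adjusted p = 0.0156). *JAZ1* had 4.47, 4.73 and 4.31 at 4 h, against 3.94, 4.05 and 3.93 at 0 h, a response of 0.53 (SE 0.14, limma adjusted p = 0.0266). Both rises were shared by all arrays, at 2.05-fold for *JAZ2* and 1.44-fold for *JAZ1*.

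*JAZ4* was the member that fell in WT under salt. Its log2 signals were -3.31, -4.03 and -2.75 at 4 h, against -1.72, -1.76 and -1.70 at 0 h, a response of -1.64 (95% interval -2.47 to -0.81, limma adjusted p = 0.0155). A second probe of *JAZ4* gave a smaller fall, -0.85 (SE 0.43), with an unadjusted p of 0.0789 in the same limma model, so that the fall was called by 1 of its 2 probes.

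*JAZ7* had log2 signals of 1.08, 1.93 and 0.09 in WT at 4 h, against -0.48, -0.04 and -0.28 at 0 h, a response of 1.3 (SE 0.49, limma adjusted p = 0.0899). *JAZ9* had 1.11, 1.95 and -0.01 at 4 h, against -0.81, -0.46 and -1.16 at 0 h, a response of 1.83 (SE 0.60, limma adjusted p = 0.0596). For both, replicate 3 at 4 h was the array nearest to the 0 h group. *JAZ8* (0.36), *JAZ3* (0.48) and *JAZ6* (-0.08) gave smaller responses, none past an unadjusted p of 0.05.

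The count of 5 called members in WT depended on single arrays. Leaving out replicate 1, 2 or 3 of WT at 0 h gave 2, 3 and 1 members, and leaving out replicate 2 of WT at 4 h gave 3. Calls over all genes dropped in the same settings, to between 8.84% and 10.9% of the genes tested, against 20.1% as reported. *JAZ5* was called in each of these, and its limma adjusted p was between 0.00191 and 0.0137 when each array was left out in turn.

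**Figure D2:**
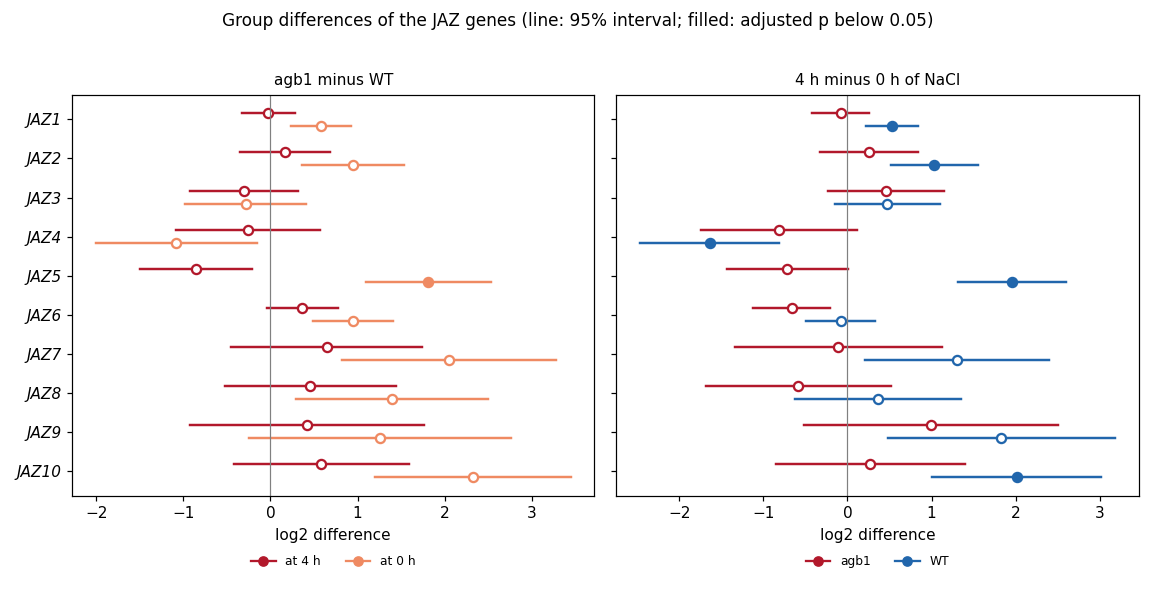
The log2 difference of each *JAZ* gene is plotted on the horizontal axis with its 95% interval from limma, for *agb1* minus WT at 4 h and 0 h in the left panel and for 4 h minus 0 h of NaCl in *agb1* and WT in the right panel. Filled points have an adjusted p below 0.05, which are *JAZ5* at 0 h on the left and *JAZ1*, *JAZ2*, *JAZ4*, *JAZ5* and *JAZ10* in WT on the right.

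In *agb1* roots, none of the 10 genes passed the adjusted threshold for a response to 4 h of salt, where 2.12% of all genes did. At an unadjusted p below 0.05, 1 member was counted, *JAZ6*, where 22.1% of all genes were. Its log2 signals were 1.81, 1.84 and 2.12 at 4 h, against 2.67, 2.58 and 2.55 at 0 h, a response of -0.66 (SE 0.20, limma adjusted p = 0.113). The fall of *JAZ6* was a difference of non-overlapping groups in *agb1*, whereas its response in WT was -0.08 with overlapping groups.

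*JAZ5* also had all its 4 h arrays below the 0 h arrays in *agb1*, where 18.4% of all genes had all arrays below and 16.2% had all arrays above. It had log2 signals of -1.29, -0.58 and -0.54 at 4 h, against 0.19, 0.25 and -0.40 at 0 h, a response of -0.71 (95% interval -1.43 to 0.01, limma adjusted p = 0.229). *JAZ2* was the member with all arrays above, by 0.25 (SE 0.26). The remaining responses ran from -0.81 for *JAZ4* to 0.99 for *JAZ9*, and the median was -0.09 over the 10 genes and -0.04 over all genes. The groups overlapped for 7 of the 10 genes.

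The 95% intervals of these responses were wide. For *JAZ10* the response in *agb1* was 0.27 with an interval from -0.85 to 1.40, and for *JAZ7* it was -0.11 with an interval from -1.34 to 1.12, so that the interval of *JAZ7* held a 2-fold rise as well as a 2-fold fall. For *JAZ1*, the most evenly measured member, it was -0.08 with an interval from -0.43 to 0.26. Among the *agb1* arrays at 4 h, replicate 1 was the lowest for every member except *JAZ4*. It stood farthest off for *JAZ7* (0.72), *JAZ8* (-1.33), *JAZ9* (0.55) and *JAZ10* (1.54), against 2.14 to 2.18, -0.07 to 0.42, 1.66 to 2.1 and 2.61 to 3.08 on the other 2 arrays.

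After 4 h of salt, *agb1* and WT roots overlapped for 9 of the 10 genes. Most genes on the array overlapped too: of 25182, 2905 had all *agb1* arrays above those of WT and 1785 all below. None of the 10 members passed the adjusted threshold, which 1.65% of all genes did. *JAZ5* was lower in every *agb1* array than in every WT array (7.09% of all genes), with -1.29, -0.58 and -0.54 in *agb1* against 0.00, 0.53 and -0.37 in WT. Its difference of -0.86 (95% interval -1.50 to -0.21, limma adjusted p = 0.207) was the 1 with an unadjusted p below 0.05, where 14.3% of all genes had one. The other members ranged from -0.31 for *JAZ3* to 0.64 for *JAZ7*, and the median was 0.27 over the 10 genes and 0.05 over all genes.

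*JAZ5* at 4 h was called with array weights alone among the settings tried (limma adjusted p = 0.00297), a setting that called 20.7% of all genes at 4 h, against 1.65% as reported. Within slides, its difference at 4 h was -1.29, -0.18 and -1.1 on slides 1, 3 and 4. The direction of the family at 4 h differed between slides, with 1 member higher and 9 lower in *agb1* on slide 1, and 7 higher and 3 lower on each of slides 3 and 4. At 0 h, 8 were higher and 2 lower in *agb1* on both slides that held both genotypes. Each of these directions compares 1 array with 1 array. The share of all genes going each way on a slide was not counted.

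The interaction, which is the response to salt in *agb1* less the response in WT, was below 0 for 9 of the 10 genes and had a median of -0.81, against 0.05 over all genes. None passed the adjusted threshold, which 0.179% of all genes did, and *JAZ1*, *JAZ5* and *JAZ10* had an unadjusted p below 0.05, where 12.4% of all genes had one. Of these, *JAZ5* and *JAZ10* were at least 2-fold lower (3.64% of all genes). *JAZ5* had the largest interaction, -2.67 (95% interval -3.63 to -1.70, limma adjusted p = 0.0555). That of *JAZ10* was -1.74 (95% interval -3.25 to -0.23, limma adjusted p = 0.339) and that of *JAZ1* was -0.61 (95% interval -1.07 to -0.15, limma adjusted p = 0.293).

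The interaction of *JAZ5* stood at the threshold. Its limma adjusted p was 0.0445 when replicate 3 of WT at 4 h was left out (0.253% of all genes called). It was 0.0482 when replicate 3 of *agb1* at 0 h was left out (0.461%), and up to 0.206 with the normexp background correction. With 12 arrays counted as 12 samples it was 0.0143, but that setting takes the *agb1* arrays averaged here as separate samples. It called 1.04% of all genes, against 0.179% as reported. The interaction of *JAZ5* was -3.24 within slide 1 and -1.63 within slide 3. *JAZ4* was the member above 0, at 0.83 (SE 0.55), and its second probe gave 0.04 (SE 0.65). The difference between its probes was not tested. The interaction shares the WT 0 h arrays with the difference at 0 h and with the response in WT, so that these 3 comparisons are not independent of each other.

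**Figure D3:**
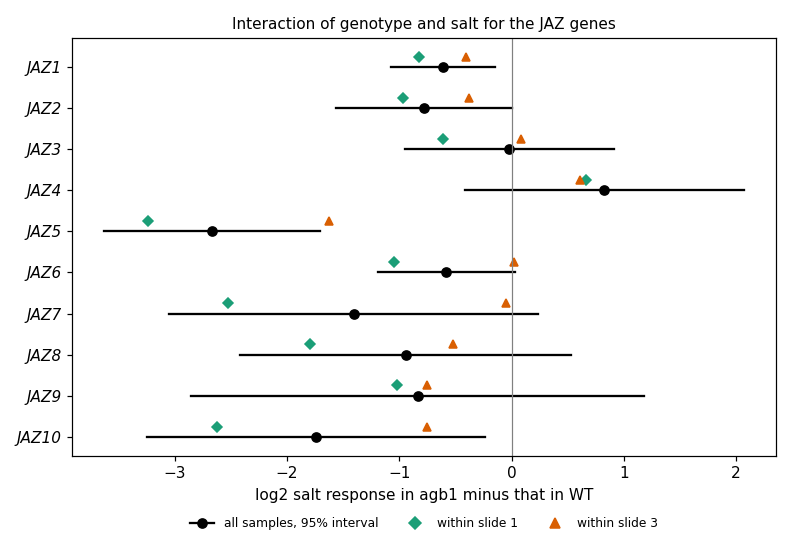
The interaction of genotype and salt (log2 response to salt in *agb1* less that in WT) is plotted for each *JAZ* gene with its 95% interval from limma, beside the value within slide 1 and within slide 3, which each held all 4 groups. The values lie below 0 for 9 of the 10 genes over all samples, with *JAZ5* farthest at -2.67, and for 9 of 10 within slide 1 and 7 of 10 within slide 3. A value within a slide rests on 1 array per group. The share of all genes below 0 was not counted.

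Side by side, WT roots after 4 h of salt and *agb1* roots without salt lay at like levels for several members, in groups that differ in both genotype and treatment. *JAZ5* averaged 0.05 ± 0.45 in WT at 4 h (SD, n = 3) and -0.09 ± 0.44 in *agb1* at 0 h (SD, n = 2), and *JAZ10* averaged 1.83 ± 0.81 in WT at 4 h and 2.14 ± 0.19 in *agb1* at 0 h. The arrays of these groups did not overlap for *JAZ3*, *JAZ6* and *JAZ8*. The share of all genes without overlap between these groups was not counted. *JAZ6* averaged 1.56 ± 0.37 in WT at 4 h and 2.59 ± 0.05 in *agb1* at 0 h, and *JAZ8* averaged -0.78 ± 0.52 in WT at 4 h and 0.25 ± 0.29 in *agb1* at 0 h.

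Genes that JAZ proteins hold silent were looked at next. Of the 5 classic jasmonate targets listed, 4 were tested (*PDF1.2A* was not). Of these, 3 rose in WT under salt (8.86% of all genes) and 1 was higher in *agb1* at 0 h (0.592%). None passed the adjusted threshold for salt in *agb1* (2.12%) or at 4 h (1.65%). *JAV1*, the target not called in WT, averaged -0.60 in *agb1* and -0.26 in WT at 0 h. At 4 h *JAV1* averaged -0.62 and -0.06, with all *agb1* arrays below those of WT (7.09% of all genes). *TAT3*, a tyrosine aminotransferase gene, had log2 signals of 1.24, 1.31 and 1.35 in *agb1* at 0 h, against -2.29, -1.76 and -2.03 in WT. Its difference was 3.34 (SE 0.48, limma adjusted p = 0.0160), and its salt response was 0.91 in *agb1* (limma adjusted p = 0.294) and 4.59 in WT (limma adjusted p = 3.04e-04). *TAT3* thus had all *agb1* arrays at 0 h above those of WT.

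*VSP1* and *VSP2*, near-identical genes of vegetative storage proteins whose probes may not tell them apart, rose in WT under salt by 4.16 and 4.67 (limma adjusted p = 0.0452 and 0.0312). At 0 h they differed by 4.91 (SE 1.39) and 4.96 (SE 1.40) between *agb1* and WT, both with a limma adjusted p of 0.110. *VSP1* had 1.67, 1.69 and -0.59 in *agb1* at 0 h, against -4.62, -4.26 and -4.21 in WT, and its spread was largest after salt, with -2.76, 0.10 and 0.40 in *agb1* against -2.88, 0.16 and 2.1 in WT.

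Of 13 genes of jasmonate synthesis, 11 were tested. In WT under salt 5 rose (8.86% of all genes), none fell (11.2% of all genes) and 6 did not pass the adjusted threshold. The 5 were *LOX3* and *LOX4* (lipoxygenases), *OPR3* (the reductase of the late pathway), *ACX1* (of peroxisomal oxidation) and *JAR1*, which makes jasmonoyl-isoleucine. At 0 h *LOX3* was higher in *agb1*, with -0.20, -0.10 and -1.73 in *agb1* against -3.58, -3.04 and -3.36 in WT, a difference of 2.39 (SE 0.41, limma adjusted p = 0.0292). Of all genes, 0.592% were called higher there. At 4 h *LOX3* was lower on every *agb1* array, with -1.93, -1.45 and -1.29 against -0.19, 0.28 and 0.16 in WT (7.09% of all genes). It did not pass the adjusted threshold at 4 h. *LOX3* was also the gene of these lists whose interaction passed the threshold, at -4.02 (SE 0.55, limma adjusted p = 0.0296), where 0.179% of all genes passed.

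Of 10 genes that inactivate jasmonates, 5 rose in WT under salt (8.86% of all genes) and none fell (11.2% of all genes). *CYP94B1* rose by 3.92 and *CYP94B3* by 1.37 (both oxidise jasmonoyl-isoleucine), *JOX4*, a jasmonate oxidase gene, by 4.44, and *ST2A*, a sulfotransferase gene, by 2.33, with limma adjusted p-values of 0.00169, 0.00209, 0.0111 and 0.00434. *JOX1* was not well above background on any 0 h array and was at least 2.63-fold higher at 4 h in WT, the bound being the dimmest signal well above background on each array, with a limma adjusted p of 0.00446 for its measured values. None of the 10 passed the adjusted threshold in the other 4 comparisons.

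Of the 6 other genes of the TIFY family, to which JAZ proteins belong, *JAZ11*, *JAZ12* and *JAZ13* rose in WT under salt, by 0.52, 0.74 and 3.96, while *PPD1* (-0.79) and *TIFY8* (-0.45) fell. Of all genes, 8.86% rose and 11.2% fell there. *JAZ13*, a stable repressor like JAZ8, was 2.45 higher in *agb1* than in WT at 0 h (SE 0.72, limma adjusted p = 0.118). The receptor gene *COI1*, the 8 transcription factor genes and the 4 corepressor genes had no member past the adjusted threshold in any of the 5 comparisons. *MYC2* gave 0.68 (SE 0.37) between *agb1* and WT at 0 h and 0.96 (SE 0.33, limma adjusted p = 0.0707) for salt in WT, while *NINJA* gave 0.22 (SE 0.21) and -0.22 (SE 0.19). Of the 8 transcription factor genes, *ERF1*, *JAM1*, *MYC2* and *ORA59* had all *agb1* arrays above those of WT at 0 h (20.1% of all genes). *MYC4* had all of them below, as did *COI1* (20.3% of all genes). *MYC3* averaged 0.79 in *agb1* and 1.19 in WT at 0 h.

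**Figure D4:**
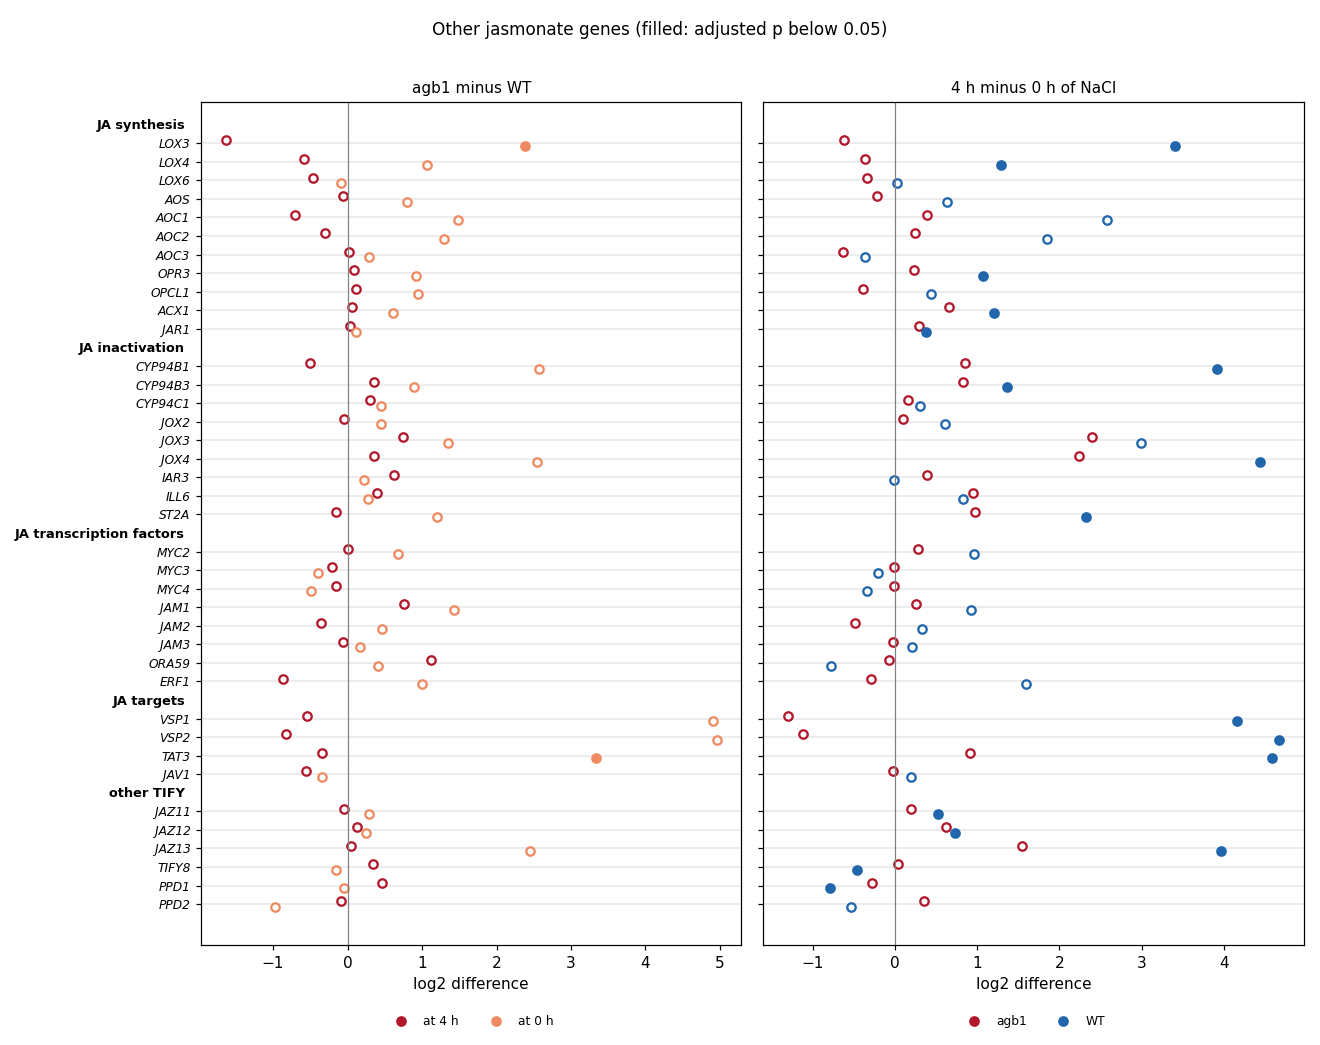
The log2 difference of each tested gene of jasmonate synthesis, inactivation, transcription factors, targets and other TIFY genes is plotted on the horizontal axis, for *agb1* minus WT at 4 h and 0 h (left) and for 4 h minus 0 h of NaCl in *agb1* and WT (right). Filled points have a limma adjusted p below 0.05, and they are all in WT under salt or at 0 h. *JOX1* is left out because it was not above background at 0 h.

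Cell markers also differed between the groups. Of 9 root cell markers, *CO2*, a cortex marker, was lower in *agb1* than in WT at 0 h (-1.97, limma adjusted p = 0.0289). Of 25182 genes, 324 were lower there. *CO2* also fell in WT under salt (-2.65, limma adjusted p = 7.63e-04), where *SCR*, *SHR* and *SMB* fell too. Of all genes, 11.2% fell in WT under salt. None of the 9 was called higher in either comparison. *EXP7* averaged 0.67 in *agb1* and 0.31 in WT at 0 h, and 0.58 in WT at 4 h. *WOL* averaged 0.94 in WT at 0 h and 0.99 at 4 h. None of the 6 leaf markers passed the adjusted threshold at 0 h or for salt in WT, and their medians were -0.74 and 0.47. The part of these shifts in the *JAZ* differences was not tested.

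The members were alike to differing degrees over the 11 samples. Pearson's r with the profile of the family, the median over its members of each gene's deviation from its own mean, was 0.95 for *JAZ1*, 0.95 for *JAZ7*, 0.94 for *JAZ10*, 0.90 for *JAZ2* and 0.89 for *JAZ8*. It was 0.83 for *JAZ5*, 0.77 for *JAZ9*, 0.63 for *JAZ6* and 0.19 for *JAZ3*, and *JAZ4* ran opposite at -0.75. The samples share groups and slides, and each member is part of the profile it is compared with, so that these values are a description.

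Among 23213 other genes, the 8 most like the family profile were *AT5G19100* (r = 0.96), *AT5G19110* (0.93), *SUC1* (0.93), *DDF2* (0.93), *MNP* (0.92), *MRL7* (0.92), *OCT1* (0.91) and *AT2G34350* (0.91) over the 11 samples. *SUC1* encodes a sucrose transporter and *DDF2* a DREB-type transcription factor. Their differences between *agb1* and WT at 0 h ran from 0.49 for *MRL7* to 2.81 for *OCT1*, a direction that choosing them by r over the same samples largely fixes.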

How the data were processed

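Root RNA of 12 samples was labelled with Cy3 and hybridised to Agilent 1-colour arrays. The authors deposited the scanner output of each array, whose processed signal is an intensity corrected for background and not scaled between arrays (Feature Extraction 10.7.1.1 in the file headers, 9.1 in the submitters' processing notes). Control and outlier spots were left out, each array's 75th percentile was subtracted on the log2 scale, and spots of a probe were averaged over the 43603 probes. Of these, 34358 matched a locus through a RefSeq table for assembly TAIR10.1. A probe was kept if some group had it well above background throughout, and the brightest represented a gene.

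A model with 4 group means was fitted over all 25182 genes with limma 3.58.1 in R 4.3.3 on 11 samples, and checked on simulated data. All adjusted p-values are limma's, after Benjamini-Hochberg over all genes. The labels name 3 independent experiments but not their material, so that p-values measure the spread between these samples. The members and gene lists were chosen with earlier results of these data known. All members are reported by their brightest probe. List genes are named where they passed the adjusted threshold, with a few others chosen after their values were seen, and the genes most like the family by r. No probe sequence was used, so that cross-hybridisation between paralogs was not tested.

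Replicate 1 of all groups lay on slide 1 and replicate 3 on slide 3, replicate 2 of WT at 0 h on slide 2 and the other replicates 2 on slide 4. Same-numbered *agb1* and WT arrays at 4 h deviated together over all genes (r = 0.58, 0.35 and 0.37). Over the 10 members, r at 4 h was 0.46, 0.75 and -0.77. The joint deviation over all genes did not hold at 0 h (r = -0.018, -0.0034 and -0.20) or for salt in *agb1* (0.01, 0.11 and -0.10). For salt in WT it was weaker than at 4 h (0.21, 0.09 and 0.19), and lowest for replicate 2, whose arrays lay on different slides. The reported fit has no term for replicate or slide, which were blocks in alternatives only. With the replicate block the number of members called at 4 h stayed 0. Alternatives were other scalings, background corrections, filters and probe rules, 12 samples, blocks for replicate or slide, array weights and leaving out each array.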

Additional observations from a re-analysis of the deposited data

How the results depend on the processing

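The number of members called at 0 h, 1 as reported, was 0 with normexp, with slide as a fixed block and with array weights (which did not fully converge), 2 with the mean of all probes, 3 with probes above background on every array, 5 with only the groups compared, 6 with 12 samples or slide as a random block, and 7 with the replicate block on 12 arrays. For salt in WT, 5 became 3 with slide fixed and 9 with array weights. Calls over all genes moved too: at 0 h they were 1.88% as reported, 0.0278% with normexp, 0.667% with slide fixed, 0.663% with array weights, 4.67% with only the groups compared, 8.99% with 12 samples, 8.87% with slide random and 7.2% with the replicate block, and for salt in WT 20.1% as reported, 9.91% with slide fixed and 65.1% with array weights. For salt in *agb1*, 0 became 1 with 12 samples and with slide random, which each called 13% of all genes, against 2.12% as reported. The interaction, 0, became 1 with 12 samples, the replicate block, slide random and array weights. Of all genes, 1.04%, 0.627%, 1.03% and 0.89% were called in these, against 0.179% as reported. At 4 h, 0 became 1 with array weights, where 20.7% of all genes were called, against 1.65% as reported. By unadjusted p and 2-fold, array weights gave 1 at 4 h (0 as reported) and 5 for the interaction (2 as reported). Leaving out each array gave 0 to 0 called at 4 h, 0 to 5 at 0 h, 0 to 1 for salt in *agb1*, 1 to 7 for salt in WT and 0 to 1 for the interaction. Over all genes, 0.642% to 1.75%, 0.178% to 3.22%, 0.541% to 5.07%, 8.84% to 21.7% and 0.0079% to 0.461% were then called, in that order. By unadjusted p and 2-fold, leaving out each array gave 0 to 2, 3 to 5, 0 to 3, 3 to 6 and 1 to 4 in that order. The share of all genes past this rule was not counted in the alternatives. The members called rose to 5 at 0 h without WT 4 h replicate 3, which also gave 1 for salt in *agb1* and for the interaction, as did *agb1* 0 h replicate 3 for the interaction. By unadjusted p and 2-fold the lowest counts came without WT 0 h replicate 3 at 0 h, without WT 4 h replicate 2 for salt in WT, and for the interaction without either WT 0 h replicate 1 or 3 or the first *agb1* array at 4 h, and the highest without WT 4 h replicate 3 for the interaction, without *agb1* 0 h replicate 3 for salt in *agb1*, and at 4 h without replicate 2 of WT or 1 of *agb1*. The cause was not tested.

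No value past an unadjusted p of 0.05 turned its sign. Signs turned for *JAZ1* at 4 h with median scaling (0.0055), for *JAZ4* at 4 h with normexp (0.27) and array weights (0.23), and with array weights for *JAZ2* (-0.23) and *JAZ9* (-0.19) at 4 h, *JAZ7* for salt in *agb1* (0.21) and *JAZ6* for salt in WT (0.071). The *JAZ3* interaction was 0.033 with median scaling, 0.069 with slide fixed and 0.10 with array weights. Leaving out arrays gave -0.12 to 0.087 (*JAZ1*), -0.10 to 0.39 (*JAZ2*), -0.59 to 0.052 (*JAZ4*) and -0.10 to 0.88 (*JAZ9*) at 4 h, -0.35 to 0.082 (*JAZ3*) at 0 h, -0.36 to 0.37 (*JAZ7*) and -0.064 to 0.71 (*JAZ10*) for salt in *agb1*, -0.21 to 0.13 (*JAZ6*) for salt in WT and -0.39 to 0.20 (*JAZ3*) for the interaction. Precision is limited by 2 or 3 samples per group.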
